A study of Mus musculus with 3 samples.

Results

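T follicular helper-like cells were looked for among CD45+ cells sorted from mouse colon and profiled by droplet single-cell RNA sequencing. The barcodes were chosen by measured UMIs. A barcode was taken as Tfh-like when it held at least 200 detected genes and at most 20% mitochondrial UMIs (unique molecular identifiers, each standing for 1 captured RNA molecule), at least 1 UMI of the CD3 chains Cd3e, Cd3d and Cd3g, and UMIs of at least 2 of the 5 markers Sostdc1, Tox2, Izumo1r, Pdcd1 and Cxcr5. It had to hold 0 UMIs of Foxp3, Il17a, Il17f, Il10, Cd8a, Cd8b1, Cd79a and Ms4a1. This left 343 Tfh-like barcodes of 16690 that passed the gene and mitochondrial filters, out of 22248 deposited.

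The series holds 3 libraries from C57BL/6 mice, described as male in the protocols, that entered the model at 6 to 8 weeks of age. T1 came from colon with low-grade and T3 from colon with high-grade intraepithelial neoplasia. Both were induced with the carcinogen azoxymethane (AOM, 12 mg/kg by intraperitoneal injection) and 3 cycles of dextran sulfate sodium (DSS, 2.5% for 7 days, then water for 14 days). C came from normal colon of healthy mice, for which the labels give no AOM or DSS, so neoplasia and the agents cannot be told apart in a comparison with C. The number of mice behind a library is not given. Tfh-like barcodes numbered 186 in T1, 58 in T3 and 99 in C.

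T follicular helper (Tfh) cells are CD4 T cells that move into B-cell follicles and help B cells in germinal centres. The repressor Bcl6 directs their fate. They are held near B cells by the chemokine receptor Cxcr5, signal through the costimulatory receptor Icos and the adaptor Sh2d1a (SAP), and secrete interleukin 21, which drives B cells to divide and to become plasma cells. To stay in the follicle they switch off a programme of lymph-node entry and tissue exit that is driven by Klf2 and includes the sphingosine phosphate receptor S1pr1. In the gut they are found in Peyer's patches and isolated lymphoid follicles, where they support IgA responses to microbes.

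Each condition had 1 library, so no difference between conditions has a replicate check and no p-value is given. For each gene the UMIs were summed over the Tfh-like barcodes of a library and scaled to the usual CPM unit (counts per 1e6 UMIs of that sum). A gene was called higher or lower when 2 sums held at least 50 UMIs of it together, their CPM differed at least 2-fold, and the exact 95% interval of the ratio left out 1. All intervals cover counting error only. Tfh-like sums held 1202954 UMIs in T1, 327388 in T3 and 594023 in C, so T3 values are the least precise. Median UMIs per Tfh-like barcode were close, at 6082 in T1, 5626 in T3 and 5316 in C, while over all barcodes that passed they were 5272 in T1, 1803 in T3 and 4933 in C.

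Several features of the libraries touch the values below. The libraries shared 35 barcode sequences (T1 and T3), 39 (T1 and C) and 35 (T3 and C). Of these, 2, 2 and 1 were Tfh-like in 1 library of the pair, and 0 were Tfh-like in both. Xist, the RNA that silences an X chromosome in female cells, gave 1904, 588 and 1029 UMIs in the Tfh-like barcodes of T1, T3 and C. The Y-linked genes Ddx3y, Uty, Kdm5d and Eif2s3y gave 0 in each, which goes against the male label. Haemoglobin UMIs were present in 40 of 58 Tfh-like barcodes of T3 (69.0%), in 1 of T1 and in 0 of C. The summed level of the erythroid list was 272 CPM in Tfh-like barcodes of T3, against 5898 CPM in its other CD3 barcodes and 33804 CPM in its barcodes without CD3. A doublet caller marked 0.0488% of T1, 0.0220% of T3 and 1.15% of C barcodes, too few in T1 and T3 for it to have worked, and 0 Tfh-like barcodes.

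The 5 markers that chose the barcodes were used unevenly, which is a description and not a result. Izumo1r, the folate receptor 4 of T cells, was present in 89.8% of Tfh-like barcodes in T1, 86.2% in T3 and 89.9% in C. Tox2, a nuclear factor of the Tfh programme, was present in 55.9% in T1, 56.9% in T3 and 63.6% in C. Pdcd1, which encodes the inhibitory receptor PD-1, was present in 50% in T1, 32.8% in T3 and 58.6% in C. Cxcr5 was present in 51.1% in T1, 39.7% in T3 and 50.5% in C. Sostdc1, a secreted antagonist of bone morphogenetic protein and Wnt signals, was the rarest, present in 17.2% in T1, 3.45% in T3 and 22.2% in C. In T3 its 12 UMIs came from 2 barcodes, and 91.7% of them from 1.

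In T1 and T3 more Tfh-like barcodes than not sat just inside the threshold, and in C fewer. Exactly 2 markers were found in 105 of 186 in T1, 48 of 58 in T3 and 40 of 99 in C, and all 5 markers in 8, 0 and 4. The commonest pair without any other marker was Tox2 with Izumo1r, in 36 barcodes of T1, 20 of T3 and 17 of C. Just outside the threshold stood 258 barcodes of T1, 269 of T3 and 167 of C with exactly 1 marker. That marker was Izumo1r in 71.3% of them in T1, 84.0% in T3 and 64.7% in C. The exclusions removed many barcodes too. Of CD3 barcodes with at least 2 markers, 183 of 369 in T1 (49.6%), 37 of 95 in T3 (38.9%) and 70 of 169 in C (41.4%) held an excluded gene. Foxp3, the factor of regulatory T cells, was found in 20.1% of those of T1, 20% of T3 and 9.47% of C. The B-cell genes Cd79a or Ms4a1 were found in 30.1% of T1, 9.47% of T3 and 25.4% of C.

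Whether the barcodes carried Tfh genes that the rule did not use was read against the other CD3 barcodes of the same library, which met the same filters and exclusions but held 0 or 1 marker (890 in T1, 1450 in T3 and 1050 in C). Bcl6 stood at 74.8 CPM in Tfh-like against 13.9 CPM in other CD3 barcodes of T1, at 76.4 against 26.3 CPM in T3, and at 101 against 11.7 CPM in C. The log2 ratios were 2.43 [1.97, 2.90], 1.54 [0.86, 2.17] and 3.11 [2.58, 3.63], so Bcl6 was called higher in every library. A Bcl6 UMI was present in 63 of 186 Tfh-like barcodes in T1 (33.9%), 19 of 58 in T3 (32.8%) and 34 of 99 in C (34.3%). Bcl6 lies on chromosome 16 at 23965052 to 23988852, minus strand (GRCm38).

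Il21, the cytokine of B-cell help (chromosome 3, 37222759 to 37232636, minus strand), stood at 49.9 CPM in Tfh-like against 4.24 CPM in other CD3 barcodes of T1. In T3 it stood at 33.6 against 4.17 CPM, and in C at 106 against 2.55 CPM. The log2 ratio was 3.55 [2.83, 4.33] in T1 and 5.38 [4.55, 6.30] in C. In T3 it was 3.01 [1.8, 4.14] on fewer than 50 UMIs, too few for a call. Icos stood at 630.1 against 269.5 CPM in T1, 635 against 201 CPM in T3 and 436 against 74.8 CPM in C, with log2 ratios of 1.23, 1.66 and 2.54. Sh2d1a stood at 520.4 against 121 CPM in T1, 333 against 97.7 CPM in T3 and 574 against 74.8 CPM in C, with log2 ratios of 2.10, 1.77 and 2.94. For Bcl6, Il21, Icos and Sh2d1a the other CD3 barcodes of C held the lowest level of the 3 libraries, and the ratio was largest in C.

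Maf, a transcription factor that drives Il21 in Tfh cells, showed the same order. It stood at 706 CPM in Tfh-like against 213 CPM in other CD3 barcodes of T1, at 837 against 129 CPM in T3 and at 779 against 92.0 CPM in C. Its level in Tfh-like barcodes thus varied less between libraries than its level outside them. Cd4 itself, which the rule did not ask for, stood at 218 against 130.4 CPM in T1, 219.9 against 149 CPM in T3 and 215 against 68.3 CPM in C. A Cd4 UMI was present in 130 Tfh-like barcodes of T1 (69.9%), 40 of T3 (69.0%) and 65 of C (65.7%).

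Across all genes with enough UMIs, 378 of 7462 were called higher in Tfh-like than in other CD3 barcodes of T1 (5.07%), 439 of 6783 in T3 (6.47%) and 448 of 7756 in C (5.78%). Called lower were 339 in T1 (4.54%), 186 in T3 (2.74%) and 458 in C (5.91%). In a list of 34 Tfh genes outside the rule, 23 of the 29 with enough UMIs were called higher and 0 lower in T1, 14 of 21 higher and 1 lower in T3, and 23 of 27 higher and 1 lower in C. The median log2 ratio of those with enough UMIs was 1.44 in T1, 1.54 in T3 and 2.02 in C, beside 0.21, 0.20 and 0.08 over all genes tested in these libraries. Genes of low level that passed on their Tfh-like UMIs had to differ. The list was also chosen with earlier results of these data known, and it holds Tbc1d4, Smco4, Cebpa, Zfp831 and Ptpn13. These counts and the later ones on this list thus describe it and are no support. The gene called lower in T3 was Lef1, a factor of naive T cells that also promotes Bcl6, at 171 CPM in Tfh-like against 586 CPM in other CD3 barcodes. Ascl2, which induces Cxcr5, had 15 UMIs in T1, 1 in T3 and 11 in C in Tfh-like barcodes, and 0 in the other CD3 barcodes of each library.

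**Figure D1:**
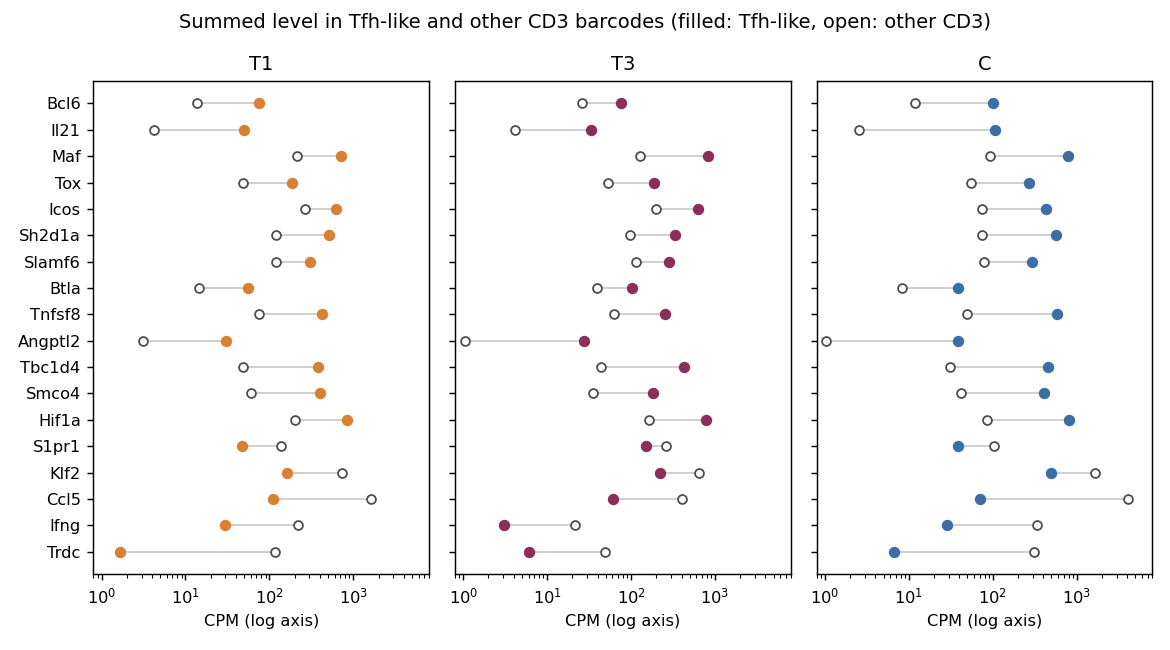
CPM on a log axis of genes outside the rule in Tfh-like (filled) and other CD3 (open) barcodes of T1, T3 and C, 1 point per library and population. Bcl6, at 74.8, 76.4 and 101 CPM in Tfh-like barcodes of T1, T3 and C, lies to the right of its other CD3 points at 13.9, 26.3 and 11.7 CPM, and Klf2 and Ccl5 lie to the left of theirs.

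The genes that set the barcodes apart most evenly were not all textbook Tfh genes. Over the 3 libraries, 100 of 6527 genes tested in each were called higher in all (1.53%) and 43 lower in all (0.659%). The gene with the highest smallest ratio was Tbc1d4, whose product controls the traffic of glucose-transporter vesicles in muscle and fat (chromosome 14, 101442360 to 101609191, minus strand). It stood at 379.9 CPM in Tfh-like against 48.2 CPM in other CD3 barcodes of T1, 422 against 43.8 CPM in T3 and 461 against 31.1 CPM in C. The log2 ratios were 2.98 [2.75, 3.21], 3.27 [2.95, 3.58] and 3.89 [3.61, 4.17]. Stx11, a syntaxin of granule release, stood at 186 against 26 CPM in T1, 82.5 against 13.8 CPM in T3 and 111 against 9.52 CPM in C. Nav2, a cytoskeletal protein named for its work in neurons, stood at 104 against 10.6 CPM in T1, 76.4 against 14.4 CPM in T3 and 148 against 7.14 CPM in C.

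Hif1a, the oxygen-regulated transcription factor, stood at 851 CPM in Tfh-like against 203 CPM in other CD3 barcodes of T1, 782 against 162 CPM in T3 and 808 against 85.7 CPM in C. Tnfsf8, the ligand of CD30, stood at 427 against 75.2 CPM in T1, 257 against 63.4 CPM in T3 and 584 against 48.8 CPM in C. Smco4, a small membrane protein, stood at 399.8 against 60.8 CPM in T1, 180.2 against 35.2 CPM in T3 and 409 against 41.8 CPM in C. These genes were present in most Tfh-like barcodes, Hif1a in 91.9% of T1, 84.5% of T3 and 90.9% of C. The remaining genes at the head of this order were Eea1, Plekho1, Slc26a11, Ntrk3, Ptpn11, Tox, Stk39, Tspan5 and Sec14l1. Among them Tox, a chromatin factor of persistently stimulated T cells and kin of the rule's Tox2, stood at 185 against 49.0 CPM in T1, 186 against 53.1 CPM in T3 and 271 against 54.6 CPM in C. Ptpn11, the phosphatase SHP2 that binds PD-1, stood at 136 against 26.4 CPM in T1, 91.6 against 25.8 CPM in T3 and 155 against 22.3 CPM in C. Cebpa, better known from myeloid cells, stood at 74.8 against 2.12 CPM in T1 and 70.7 against 3.91 CPM in C, and at 21.4 against 1.04 CPM in T3, where it had 7 UMIs and no call.

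Genes called lower in every library included several of effector T cells. The other CD3 barcodes were not CD4 cells alone. Of those with 0 markers, 35.4% in T1, 29.6% in T3 and 20.5% in C held a Cd4 UMI. A Trdc UMI was present in 9.97%, 4.40% and 22.9%. With a Cd4 UMI asked of the other CD3 barcodes, 16 of the 43 genes stayed called lower in every library. The part of this make-up in the lower calls was not tested. Ccl5, a chemokine of effector T cells, stood at 112 CPM in Tfh-like against 1632 CPM in other CD3 barcodes of T1, 61.1 against 408 CPM in T3 and 70.7 against 4107 CPM in C. Ifng stood at 29.9 against 218 CPM in T1, 3.05 against 21.3 CPM in T3 and 28.6 against 335 CPM in C. In a list of 16 type 1 helper genes, 13 of 15 with enough UMIs were called lower in T1, 4 of 11 in T3 and 12 of 15 in C. The shares of all genes tested that were called lower were 4.54%, 2.74% and 5.91%. Trdc, the constant region of the delta receptor chain, stood at 1.66 against 117 CPM in T1, 6.11 against 48.3 CPM in T3 and 6.73 against 309.9 CPM in C. Tcrg-C1, a constant region of the gamma chain, was called lower in T1 and C but higher in T3, with a log2 ratio of 1.98 that rested on 11 UMIs of 1 barcode. The order also held Ly6c2, Ly6c1, Prkd3, Tmem108, Igfbp4, Fasl, Klrd1, Mgat4a, Cd7, Dapl1 and Arl4c.

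Klf2, which drives the exit programme that Tfh cells switch off, was low as well. It (chromosome 8, 72319033 to 72321656, plus strand) stood at 161 CPM in Tfh-like against 736 CPM in other CD3 barcodes of T1, 219.9 against 647 CPM in T3 and 489.9 against 1659 CPM in C, with log2 ratios of -2.19, -1.56 and -1.76. In a list of 15 genes known to be low in Tfh cells, 7 of 15 with enough UMIs were called lower in T1, 2 of 14 in T3 and 6 of 14 in C. Of all genes tested in these libraries, 4.54%, 2.74% and 5.91% were called lower. S1pr1 was called lower in T1, at 46.6 against 139 CPM, and in C, at 38.7 against 103 CPM. In T3 it stood at 149.7 against 261 CPM, a log2 ratio of -0.80 [-1.24, -0.39], short of 2-fold. Stat5a, which transmits signals that oppose the Tfh fate, was called higher in T3.

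Receptors that switch T cells on and off were both among the genes called higher. Of 15 costimulatory genes, 5 were called higher in T1, 8 in T3 and 11 in C, with Icos, Tnfrsf4, Tnfsf8 and Slamf6 in each, beside 5.07%, 6.47% and 5.78% of all genes tested in these libraries. Cd226 was called lower in T1 and C, at log2 ratios of -2.23 and -3.15. Tnfrsf4 (OX40) stood at 293 CPM in Tfh-like against 141 CPM in other CD3 barcodes of T1, 367 against 62.1 CPM in T3 and 194 against 41.6 CPM in C. On the inhibitory receptor list, 5 of 10 genes with enough UMIs were called higher in T1 and 5 of 10 in C. In T3 it was 5 of 7. Ctla4, Btla, Cd200 and Tox were among them in each library, beside the same shares of all genes. The list is wider than its name, as Tox is a chromatin factor and Cd200 a ligand. Cd160, which binds the same ligand as Btla, was called lower in T1 and C, at log2 ratios of -1.53 and -2.36. Ctla4 stood at 669 against 229 CPM in T1, 586 against 151 CPM in T3 and 633 against 57.8 CPM in C. Btla, which restrains the help given to B cells, stood at 54.9 against 14.5 CPM in T1, 104 against 39.4 CPM in T3 and 38.7 against 8.33 CPM in C.

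The genes outside the rule also moved with the number of markers a barcode held. A Bcl6 UMI was present in 5.85% of T1 barcodes with 0 markers, 8.91% with 1, 23.8% with 2 and 46.9% with 3 to 5. In T3 the shares were 6.44%, 11.5%, 29.2% and 50%, and in C 3.62%, 11.4%, 27.5% and 39.0%. An Il21 UMI was present in 0.316%, 3.1%, 12.4% and 22.2% of T1 barcodes with 0, 1, 2 and 3 to 5 markers, in 0.0847%, 3.35%, 10.4% and 20% of T3 barcodes, and in 0.227%, 5.39%, 10.0% and 37.3% of C barcodes. Both genes were thus less frequent in barcodes just outside the threshold than just inside it in every library. A Klf2 UMI was present in 62.8%, 63.2%, 39.0% and 33.3% of T1 barcodes with 0, 1, 2 and 3 to 5 markers, in 64.3%, 60.6%, 62.5% and 30% of T3 barcodes, and in 75.4%, 83.2%, 72.5% and 52.5% of C barcodes. Depth moved with marker number in T3, where the median was 2125 UMIs with 0 markers, 4600.0 with 1, 5704 with 2 and 4642 with 3 to 5. In T1 it ran from 5736 to 6252 and in C from 4972 to 6029. The last T3 class holds 10 barcodes.

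**Figure D2:**
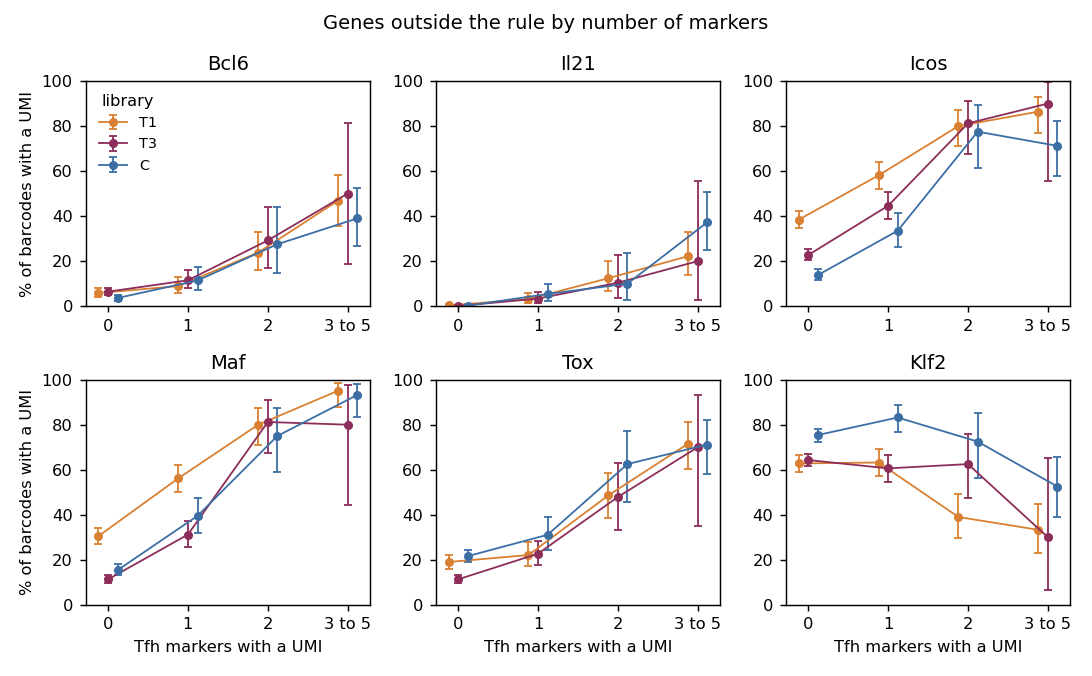
Percent of CD3 barcodes without an excluded gene that held a UMI of Bcl6, Il21, Icos, Maf, Tox or Klf2, by how many of the 5 markers they held (0, 1, 2, 3 to 5), with 1 line per library (T1, T3, C). Bcl6 is higher at each step in every library, to 46.9% in T1, 50% in T3 and 39.0% in C.

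When every barcode was thinned to 1000 UMIs, so that depth was equal, Tbc1d4 and Maf stood higher in Tfh-like than in other CD3 barcodes of each library beyond counting error. A Tbc1d4 UMI was then present in 30.1% of Tfh-like, 4.71% of other CD3 and 0.140% of B-cell barcodes in T1. The shares were 24.6%, 3.63% and 0.254% in T3, and 38.4%, 3.33% and 0.155% in C. A Maf UMI was present in 46.8% of Tfh-like, 17.5% of other CD3 and 1.12% of B-cell barcodes in T1, in 47.4%, 8.89% and 1.78% in T3, and in 51.5%, 7.57% and 0.932% in C. Bcl6 was present in 8.06% of Tfh-like, 1.18% of other CD3 and 2.58% of B-cell barcodes in T1, in 5.26%, 2.42% and 4.19% in T3, and in 11.1%, 0.807% and 2.60% in C. In T3 this is 3 of 57 Tfh-like barcodes, with an exact 95% interval of 1.10% to 14.6% that overlaps that of the other CD3 barcodes (1.61% to 3.48%), so the Bcl6 difference was not detectable at this depth there. B cells, some of which make Bcl6 themselves, are no background for that gene. Il21 was present in 3.76% of Tfh-like barcodes in T1 and 6.06% in C at this depth, and in 0 of 57 in T3. Taking 3 counts as the limit of a 0, in place of an exact interval, allows a share of up to 5.26% in T3. Left out as shallower were 1 Tfh-like barcode of T3 and 40, 292 and 59 other CD3 barcodes of T1, T3 and C.

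Detection of Tfh genes in the same barcode was limited by these low counts. Bcl6 or Il21 was found in 79 of 186 Tfh-like barcodes in T1, 24 of 58 in T3 and 50 of 99 in C, and both in 15, 2 and 10. Il21 and Il4 were found together in 8 barcodes of T1, 0 of T3 and 3 of C. Bcl6 and Ikzf2, which encodes the factor Helios, were found together in 37 of T1, 11 of T3 and 26 of C.

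Markers of other cells were present at low level. The summed level of 20 B-cell genes was 1179.6 CPM in Tfh-like barcodes of T1, 376 CPM in T3 and 1082 CPM in C. In other CD3 barcodes it was 2806, 1187 and 2075 CPM, and in barcodes without CD3 it was 55172, 30469 and 64653 CPM. In T3, 8 of the 20 were at 0 in Tfh-like barcodes (among them Pax5, Fcmr, Iglc2, Fcer2a, Cr2, Spib and Blnk), and in C Bank1 was. Natural killer and innate lymphoid genes summed to 287, 85.5 and 170.0 CPM in Tfh-like against 717, 136 and 1873 CPM in other CD3 barcodes of T1, T3 and C. Gamma-delta genes summed to 10.8, 55.0 and 18.5 CPM against 330.3, 79.8 and 962 CPM. Neutrophil genes summed to 1.66, 27.5 and 3.37 CPM in Tfh-like barcodes, and epithelial genes to 6.65, 12.2 and 10.1 CPM. A list of CD4 T-cell genes summed to 6584, 5669 and 7062 CPM in Tfh-like against 4206, 3749 and 3526 CPM in other CD3 barcodes.

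Regulatory T cells of the colon share Icos, Maf, Ctla4 and Izumo1r with Tfh cells, so the Tfh-like barcodes were set beside the Foxp3 barcodes (221 in T1, 69 in T3 and 56 in C). Genes called higher in Tfh-like barcodes made up 3.58% of those tested in T1, 2.33% in T3 and 4.12% in C, and genes called lower 7.63%, 8.54% and 6.71%. Icos stood lower in Tfh-like than in Foxp3 barcodes, at 630.1 CPM in Tfh-like against 1143 CPM in Foxp3 barcodes of T1, 635 against 861 CPM in T3 and 436 against 664 CPM in C. Tcf7, which opens the way to the Tfh fate, stood higher, at 517 against 28.8 CPM in T1, 525 against 89.5 CPM in T3 and 638 against 39.9 CPM in C. Tbc1d4 stood at 379.9 against 39.9 CPM in T1, 422 against 40.1 CPM in T3 and 461 against 43.0 CPM in C. Cd40lg, the ligand through which helper cells license B cells, stood at 106 against 9.62 CPM in T1, 119 against 43.2 CPM in T3 and 145 against 21.5 CPM in C.

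The interleukin 2 receptor chain Il2ra ran the other way, at 15 CPM in Tfh-like against 199.7 CPM in Foxp3 barcodes of T1, 21.4 against 324 CPM in T3 and 11.8 against 203 CPM in C. Of regulatory T-cell genes other than Foxp3, 14 of 15 with enough UMIs were called lower in T1, 13 of 13 in T3 and 8 of 10 in C. Against other CD3 barcodes, in contrast, 2 of 11 of this list were called higher and 2 lower in T1, 5 of 9 higher and 0 lower in T3 (Ikzf2, Ctla4, Tnfrsf18, Tnfrsf4 and Tnfrsf9), and 2 of 12 higher and 2 lower in C. Against naive Cd4 barcodes, 5 of 8 were called higher in T1, 5 of 6 in T3 and 4 of 6 in C, and 0 lower. Over all genes tested in T1, T3 and C, 7.63%, 8.54% and 6.71% were called lower against Foxp3 barcodes. Called higher were 5.07%, 6.47% and 5.78% against other CD3 barcodes, and 16%, 7.88% and 14.1% against naive Cd4 barcodes. Of the 34 Tfh genes, 14 of 26 with enough UMIs were called higher than in Foxp3 barcodes in T1 and 15 of 20 in C. In T3 it was 3 of 14, namely Cd40lg, Tcf7 and Tbc1d4. The shares of all genes tested were 3.58% in T1, 4.12% in C and 2.33% in T3. Bcl6 was at 74.8 CPM in Tfh-like against 23.7 CPM in Foxp3 barcodes of T1, 76.4 against 27.8 CPM in T3 and 101 against 9.22 CPM in C. Il21 was at 5.18 CPM in the Foxp3 barcodes of T1 and had 0 UMIs in those of T3 and C, which allows up to 9.26 and 9.22 CPM. Over the 3 libraries, 13 of 1714 genes tested in each were called higher in all (0.758%) and 65 lower in all (3.79%).

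Against naive Cd4 barcodes (100 in T1, 255 in T3 and 101 in C), which held Cd4, Ccr7 or another gene of naive cells, and 0 markers, genes called higher made up 16% of those tested in T1, 7.88% in T3 and 14.1% in C. Genes called lower made up 1.53%, 2.45% and 2.17%, and genes called in all 3 libraries 4% in the higher and 0.784% in the lower direction. Of the 34 Tfh genes, 20 of 24 with enough UMIs were called higher in T1, 12 of 19 in T3 and 14 of 18 in C, and Lef1 was called lower in each. Lef1 was not among the genes that chose the naive barcodes. Ccr7 was, so its difference is given no weight.

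The share of CD3 barcodes that were Tfh-like was 7.02% in T1 (95% Clopper-Pearson interval 6.08% to 8.06%), 2.12% in T3 (1.61% to 2.73%) and 3.47% in C (2.83% to 4.21%). The share in T1 was 2.02-fold that in C, a log2 ratio of 1.02 [0.67, 1.36], and the share in T3 was 0.610-fold that in C, a log2 ratio of -0.71 [-1.18, -0.25]. T3 stood at 0.301-fold of T1, a log2 ratio of -1.73 [-2.15, -1.31]. Of all barcodes that passed, Tfh-like barcodes were 3.03% in T1, 1.28% in T3 and 1.65% in C. On this base the log2 ratio of T1 over C was 0.88 [0.53, 1.22]. That of T3 over C was -0.37 [-0.83, 0.10], an interval that holds equal shares.

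Because the rule needs UMIs of several weakly captured genes, the share was lower at lower depth. Thinned to 2000 UMIs, it was 4.85% in T1, 1.39% in T3 and 3.28% in C, and T1 differed from C by a log2 ratio of 0.57 [0.14, 0.99]. Thinned to 1000 UMIs, 44 of 1999 CD3 barcodes in T1 (2.20%), 9 of 1779 in T3 (0.506%) and 35 of 2128 in C (1.64%) met the rule. The log2 ratio of T1 over C was then 0.42 [-0.21, 1.05], an interval that holds equal shares, and that of T3 over C was -1.70 [-2.75, -0.65]. At 1000 UMIs, 7.90% of barcodes in T1, 26.4% in T3 and 7.05% in C were left out as shallower. For comparison, 0.827% of B-cell barcodes in T1, 0.883% in T3 and 0.816% in C held at least 2 of the 5 markers at full depth. These shares are not an error rate of the rule.

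The order of the T3 and C shares turned when more B-cell genes were excluded. With 6 more B-cell genes excluded, the share of all CD3 barcodes was 1.96% in T1 (52 of 2648), 1.35% in T3 (37 of 2741) and 0.841% in C (24 of 2853). The share in T3 was then 1.61-fold that in C. No interval was computed for this ratio, so it is not known whether T3 and C differed beyond counting error. In Tfh-like barcodes, B-cell genes summed to 1179.6, 376 and 1082 CPM in T1, T3 and C, as given above, and their part in the shares was not tested further. Over the 12 alternatives tried, the order T1 above C above T3 was kept in 11, and T1 was above C in all 12. The share of CD3 barcodes without an excluded gene that held 3 or more markers was 7.53% in T1, 0.663% in T3 and 5.13% in C.

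**Figure D3:**
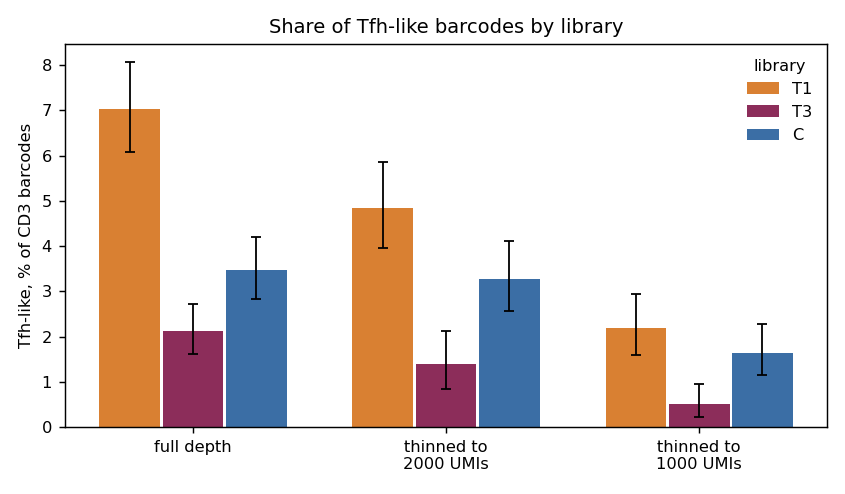
Tfh-like barcodes as a percent of CD3 barcodes in T1, T3 and C at full depth and thinned to 2000 and 1000 UMIs per barcode; bars are shares and lines the exact 95% intervals of counting error. T1 is highest at each depth and T3 lowest, at 7.02%, 2.12% and 3.47% for T1, T3 and C at full depth and 2.20%, 0.506% and 1.64% at 1000 UMIs.

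Il21, Fos and Ramp3 recur in the differences between libraries described next. The 250 bases of GRCm38.p6 (RefSeq) before the start of each are shown because their products stand for Tfh help, for recent stimulation and for cyclic AMP-linked signalling. Capitals mark the letters GGAAA, the core bound by NFAT factors, and TGACG, the core bound by CREB and CREM, on either strand (TTTCC and CGTCA on the other).
Il21, chr3:37232637-37232886, minus strand: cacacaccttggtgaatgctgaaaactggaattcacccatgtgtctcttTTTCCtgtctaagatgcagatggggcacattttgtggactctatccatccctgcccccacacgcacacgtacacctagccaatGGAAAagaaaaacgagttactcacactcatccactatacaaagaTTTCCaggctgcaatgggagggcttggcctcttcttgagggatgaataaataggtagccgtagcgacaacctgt
Fos, chr12:85473640-85473889, plus strand: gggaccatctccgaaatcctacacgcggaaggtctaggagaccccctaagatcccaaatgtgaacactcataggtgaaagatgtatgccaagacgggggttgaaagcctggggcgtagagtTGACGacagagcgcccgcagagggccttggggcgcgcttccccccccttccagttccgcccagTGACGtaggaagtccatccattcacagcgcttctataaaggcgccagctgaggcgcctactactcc
Ramp3, chr11:6658283-6658532, plus strand: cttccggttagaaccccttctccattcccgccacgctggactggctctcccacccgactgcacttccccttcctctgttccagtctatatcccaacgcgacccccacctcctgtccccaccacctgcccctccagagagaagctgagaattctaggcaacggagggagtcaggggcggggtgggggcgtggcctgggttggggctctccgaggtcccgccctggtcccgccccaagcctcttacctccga
The Il21 stretch holds 3 GGAAA and 0 TGACG, the Fos stretch 2 TGACG and 0 GGAAA, and the Ramp3 stretch 0 of either. Of 32851 mouse promoters of this length, 55.6% hold GGAAA and 17.8% hold TGACG, so a match describes the letters and not a bound site.

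In T1 against C, Tfh-like barcodes held less Il21, Jun, Fos and Klf2, and more of a small group that includes Ramp3, Crem and Ifngr1. Over all genes tested, 57 of 4137 were called higher in T1 (1.38%) and 30 lower (0.725%), and the median log2 ratio was 0.02. Il21 had 60 UMIs in 31 Tfh-like barcodes of T1 against 63 UMIs in 26 barcodes of C, or 49.9 against 106 CPM. The log2 ratio was -1.09 [-1.62, -0.56]. When CPM was averaged over barcodes in place of summed, the ratio was -0.98 and the call was lost. Among barcodes with exactly 2 markers, Il21 stood at 40.9 CPM in T1 and 29.1 CPM in C. With 3 to 5 markers it stood at 60.8 CPM in T1 and 158 CPM in C, so it was not lower in T1 at each marker number. Of the 34 Tfh genes, 28 had enough UMIs, and Il21 was the 1 gene called, with a median log2 ratio of -0.25. Bcl6 gave -0.43 [-0.92, 0.06], Sh2d1a -0.14 [-0.33, 0.05], Maf -0.14 [-0.31, 0.02] and Icos 0.53 [0.33, 0.74], none of which was called.

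The immediate early genes are switched on within minutes of a stimulus, and their products form the AP-1 factor. Jun (chromosome 4, 95049034 to 95052222, minus strand) stood at 649 CPM in T1 against 1695 CPM in C in Tfh-like barcodes, a log2 ratio of -1.38 [-1.52, -1.25]. Fos stood at 542 CPM in T1 against 1237 CPM in C, a log2 ratio of -1.19 [-1.35, -1.04]. The Fos call was lost with 6 more B-cell genes excluded (-0.60) and with Cd79a and Ms4a1 allowed (-0.81). Of the listed immediate early genes, 4 of 17 with enough UMIs were called lower in T1 and 0 higher, beside 0.725% and 1.38% of all genes tested. Klf2 stood at 161 CPM in T1 against 489.9 CPM in C, a log2 ratio of -1.60 [-1.87, -1.34]. The other CD3 barcodes of T1 moved alike, with log2 ratios over C of -1.48 for Jun, -1.23 for Fos and -1.17 for Klf2, so these genes were not lower in Tfh-like barcodes alone. Of other CD3 genes tested, 1.1% were called higher and 2.89% lower in T1 than in C. Rhob, a small GTPase gene that cell stress induces, had the lowest ratio among the genes named by the rule, at 28.3 CPM in T1 against 121 CPM in C (log2 ratio -2.10 [-2.73, -1.49]).

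Genes higher in T1 included partners of cyclic AMP signalling. Ramp3 (chromosome 11, 6658521 to 6677475, plus strand), a partner that sets which peptide the calcitonin receptor-like receptor binds, stood at 211 CPM in T1 against 57.2 CPM in C, a log2 ratio of 1.88 [1.36, 2.44]. A Ramp3 UMI was present in 43.0% of Tfh-like barcodes of T1 and 22.2% of C. Crem, a factor that cyclic AMP induces and that represses Il2 in T cells, stood at 241 CPM in T1 against 89.2 CPM in C, a log2 ratio of 1.43 [1.01, 1.88]. Both were also higher in other CD3 barcodes of T1, by log2 ratios of 2.73 for Ramp3 and 2.14 for Crem. Gpr65, a proton-sensing receptor that raises cyclic AMP, gave 1.60 [0.51, 2.89]. Of the list of cyclic AMP genes, 3 of 18 with enough UMIs were called higher and 0 lower, beside 1.38% and 0.725% of all genes tested.

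Ifngr1, a chain of the interferon gamma receptor, stood at 149.6 CPM in T1 against 53.9 CPM in C in Tfh-like barcodes, a log2 ratio of 1.47 [0.93, 2.06], while other CD3 barcodes gave 0.41. Il1r1, the receptor of interleukin 1, had 77 UMIs in 52 Tfh-like barcodes of T1, 7 in 7 of T3 and 9 in 7 of C. That is 64.0 CPM in T1, 21.4 CPM in T3 and 15.2 CPM in C, and the log2 ratio of T1 over C was 2.08 [1.08, 3.26]. In other CD3 barcodes Il1r1 stood at 7.14 CPM in T1, 3.13 CPM in T3 and 0.850 CPM in C, so in each library the Tfh-like barcodes held the higher level. The differences of these ratios between Tfh-like and other CD3 barcodes were not tested. The remaining genes that the naming rule gave as higher in T1 were Gpr146 at 1.93, Tcp11l2 at 1.58, Capg at 1.48 and Gramd3 at 1.36, and those lower were Tmem230, Dmxl1, Klf6, Phlda1, Rpf1 and Fosb at ratios from -1.46 to -1.06. Capg, an actin-capping protein, was at 0.79 and not called among barcodes with a Cd4 UMI. A few large ratios rested on single barcodes. Nkg7, a gene of cytotoxic granules, gave 5.34 for T1 over C, with 82 UMIs in 6 barcodes of T1, 61.0% of them in 1. Xcl1 gave 4.82 with 98.8% of its UMIs in T1 from 1 barcode, and Stmn1 2.41 with 53.7% from 1. The Stmn1 ratio turned to -0.46 with Cd79a and Ms4a1 allowed.

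In T3 against C, Il21 was lower again, Jun, Fos and Egr1 were lower, and Il7r, S1pr1, Id2 and Ramp3 were higher. Over all genes tested, 86 of 2413 were called higher in T3 (3.56%) and 89 lower (3.69%), with a median log2 ratio of -0.02. This comparison shares its C barcodes with the one before, so a gene low or high in C appears in both. Il21 had 11 UMIs in 7 of 58 Tfh-like barcodes of T3 against 63 UMIs in 26 of 99 in C, or 33.6 against 106 CPM. The log2 ratio was -1.66 [-2.73, -0.72], and with at least 3 markers asked for it was -1.44 and no longer called. Among barcodes with exactly 2 markers, Il21 was level, at 29.0 CPM in T3 (8 UMIs) and 29.1 CPM in C (7 UMIs). With 3 to 5 markers it stood at 58.5 CPM in T3 (3 UMIs) and 158 CPM in C (56 UMIs). T3 and C differ in how many barcodes hold 2 markers, and the part of this in the Il21 ratio was not tested. Il4, the other cytokine of germinal-centre help, had 0 UMIs in T3, 34 in 16 barcodes of T1 and 21 in 11 of C. Taking 3 counts for the 0, its level in T3 was 3.86-fold lower than in C and 3.08-fold lower than in T1. These folds leave out the counting error of the C and T1 counts, so they are not lower limits. Il4 had too few UMIs for a call in T3 against C or in T3 against T1.

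Of the 34 Tfh genes, 22 had enough UMIs in T3 and C, of which 4 were called lower (Il21, Tnfsf8, Rgs16 and Smco4) and 1 higher (Btla). Rgs16 was called lower and Btla higher in other CD3 barcodes of T3 as well. Over all genes tested the shares were 3.69% lower and 3.56% higher. Tnfsf8 stood at 257 CPM in T3 against 584 CPM in C, a log2 ratio of -1.19 [-1.55, -0.84], while other CD3 barcodes gave 0.38. Smco4 stood at 180.2 CPM in T3 against 409 CPM in C, a log2 ratio of -1.18 [-1.62, -0.77]. Both calls were lost with at least 3 markers, at -0.61 for Tnfsf8 and -0.59 for Smco4, and with Izumo1r not counted as a marker, at -0.66 and -0.78. Btla stood at 104 CPM in T3 against 38.7 CPM in C, a log2 ratio of 1.42 [0.62, 2.25], with 2.24 in other CD3 barcodes. Bcl6 gave -0.40 [-1.14, 0.29], Maf 0.10 [-0.12, 0.32], Tbc1d4 -0.13 [-0.44, 0.17] and Icos 0.54 [0.27, 0.81], with no call. The interval of Bcl6 reaches past a 2-fold lower level.

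Il7r, S1pr1 and Satb1 stood higher in T3. Il7r, the receptor of the survival cytokine interleukin 7 (chromosome 15, 9505788 to 9530176, minus strand), stood at 302 CPM in T3 and 72.3 CPM in T1, against 89.2 CPM in C. The log2 ratio of T3 over C was 1.76 [1.27, 2.27], and 1.36 in other CD3 barcodes. An Il7r UMI was present in 46.6% of Tfh-like barcodes of T3, 17.2% of T1 and 19.2% of C. S1pr1 stood at 149.7 CPM in T3 against 38.7 CPM in C, a log2 ratio of 1.95 [1.21, 2.73], and 1.34 in other CD3 barcodes. Satb1, a chromatin organiser of thymocytes and naive T cells, stood at 641 CPM in T3 against 143 CPM in C, a log2 ratio of 2.16 [1.79, 2.55], and 2.27 in other CD3 barcodes. These genes thus moved in the same direction outside the Tfh-like barcodes. Of other CD3 genes tested, 4.2% were called higher and 9.58% lower in T3 than in C.

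Id2, which restrains the E proteins that support the Tfh fate, differed in that respect. It stood at 284 CPM in T3 against 89.2 CPM in C in Tfh-like barcodes, a log2 ratio of 1.67 [1.17, 2.19], and other CD3 barcodes gave -0.94. Ifngr1 stood at 269 CPM in T3 against 53.9 CPM in C, a log2 ratio of 2.32 [1.72, 2.95], and other CD3 barcodes gave -0.50. The differences between the populations were not tested. Of the 15 genes known to be low in Tfh cells, 11 had enough UMIs in T3 and C, and 4 were called higher (S1pr1, Il7r, Id2 and Stat5a) and 1 lower (Klf2). The shares of all genes tested were 3.56% higher and 3.69% lower. Klf2 stood at 219.9 CPM in T3 against 489.9 CPM in C, a log2 ratio of -1.16 [-1.55, -0.78]. It is known to drive S1pr1, yet the pair moved in opposite directions. The same held in other CD3 barcodes, where Klf2 was called lower and S1pr1 higher in T3 than in C. Without the Tfh-like barcodes that held haemoglobin UMIs the Klf2 ratio was -0.93, and with Izumo1r not counted as a marker it was -0.90, neither of them called.

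Ramp3 and Crem stood high in T3 as in T1. Ramp3 stood at 281 CPM in T3 against 57.2 CPM in C, a log2 ratio of 2.30 [1.71, 2.91], and Crem at 235 CPM in T3 against 89.2 CPM in C, a log2 ratio of 1.40 [0.88, 1.93]. With 6 more B-cell genes excluded the Crem ratio was 0.84 and no longer called. The phosphodiesterase genes Pde4b and Pde4d, whose products break cyclic AMP down, gave 1.07 and 1.11. Jun stood at 458 CPM in T3 against 1695 CPM in C, a log2 ratio of -1.89 [-2.14, -1.64], with -2.11 in other CD3 barcodes. Fos stood at 516 CPM in T3 against 1237 CPM in C, a log2 ratio of -1.26 [-1.51, -1.02], which was lost in 4 alternatives, among them the one without haemoglobin barcodes (-0.95). Egr1, an early target of receptor signals, stood at 36.7 CPM in T3 against 182 CPM in C (log2 ratio -2.31 [-3.31, -1.45]). In other CD3 barcodes Egr1 was called lower in T3 too. Nr4a1, another such target, stood at 73.3 CPM in T3 against 242 CPM in C, where 36.1% of its UMIs came from 1 barcode, and its call was lost without Izumo1r as a marker (log2 ratio -0.78). Of 16 immediate early genes with enough UMIs, 6 were called lower and 1 higher (Fosl2, at 1.30), beside 3.69% and 3.56% of all genes tested.

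Tpm3-rs7, a near copy of the tropomyosin gene Tpm3 with which its reads may be shared, had 73 UMIs in T3, 16 in T1 and 5 in C in Tfh-like barcodes. In other CD3 barcodes it stood at 180.5 CPM in T3, 11.2 CPM in T1 and 15.1 CPM in C, and in Foxp3 barcodes at 201, 14.8 and 9.22 CPM, so it stood highest in T3 in each of these 3 populations. Got1, an enzyme of aspartate metabolism, and Crlf3, a cytokine receptor-like gene, were also higher in T3 than C, at log2 ratios of 1.8 and 1.54, and the tubulin gene Tubb2a was lower, at -2.16 [-3.27, -1.21]. S100a4, which effector and memory T cells make, gave a log2 ratio of 2.61 for T3 over C, on 104 UMIs in 7 barcodes of T3, 42.3% of them in 1.

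**Figure D4:**
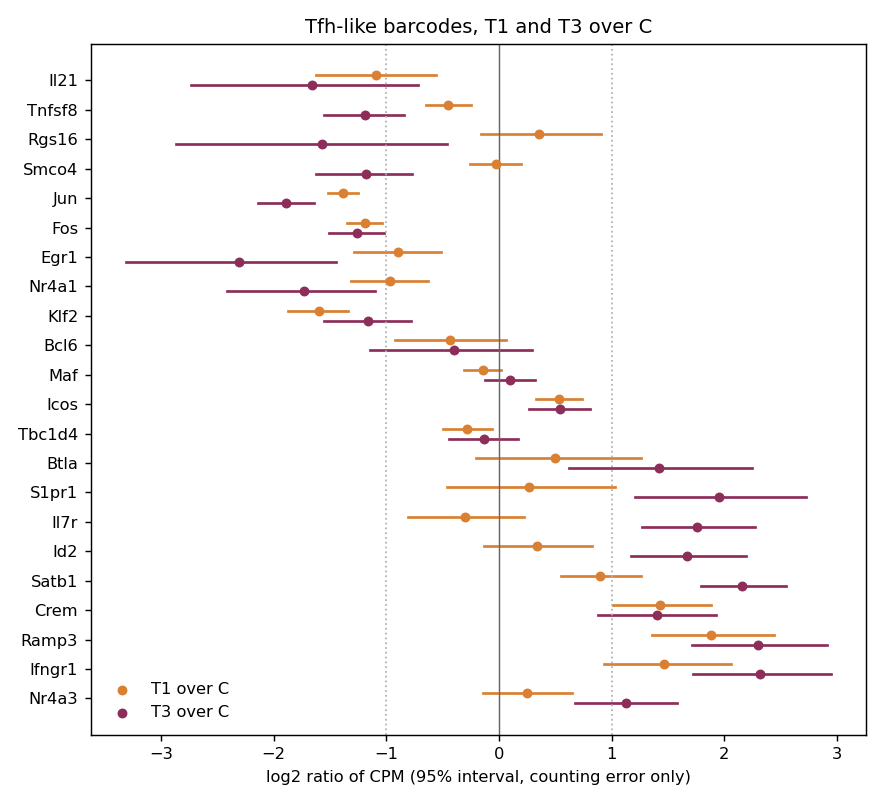
Log2 ratio of CPM in Tfh-like barcodes of T1 over C (orange) and T3 over C (purple) for 22 named genes, with exact 95% intervals of counting error and dotted lines at 2-fold. Il21, Jun, Fos and Klf2 lie below 0 and Ramp3, Crem and Ifngr1 above 0 in both, while Il7r, S1pr1 and Id2 reach 1.76, 1.95 and 1.67 in T3 over C and lie at -0.30, 0.27 and 0.34 in T1 over C.

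In T3 against T1, the neoplastic libraries that shared the agents, 99 of 3714 genes were called higher in T3 (2.67%) and 150 lower (4.04%). In other CD3 barcodes 3.23% were called higher and 5.21% lower. Il7r stood at 302 CPM in T3 against 72.3 CPM in T1, a log2 ratio of 2.06 [1.63, 2.50]. S1pr1 stood at 149.7 CPM in T3 against 46.6 CPM in T1, a log2 ratio of 1.68 [1.10, 2.26], and Satb1 at 641 CPM in T3 against 267 CPM in T1, a log2 ratio of 1.27 [1.01, 1.52], which was 0.64 and not called with at least 3 markers. Of the 15 genes known to be low in Tfh cells, 5 of 12 with enough UMIs were called higher in T3 (S1pr1, Il7r, Id2, Stat5a and S1pr4) and 0 lower. The Id2 ratio of 1.33 was 0.83, and no longer called, without the haemoglobin barcodes.

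The Tfh genes themselves mostly lay close in the neoplastic libraries, with 1 of 25 called higher in T3 (Zfp831) and 3 lower (Cebpa, Rgs16 and Smco4), and a median log2 ratio of 0.01. Il21 gave -0.57 [-1.65, 0.37] and Bcl6 0.03 [-0.67, 0.68] for T3 over T1, intervals that hold equal levels. Cebpa had 7 UMIs in 3 barcodes of T3 against 90 in 43 of T1, a log2 ratio of -1.81 [-3.16, -0.71]. Tubulin genes stood lower, with Tubb2a at 30.5 CPM in T3 against 179.6 CPM in T1 and a log2 ratio of -2.56 [-3.64, -1.65]. The MHC class II genes Cd74, H2-Aa, H2-Ab1 and H2-Eb1, which B cells make at high level, were all called lower in T3, with Cd74 at 48.9 CPM in T3 against 139.7 CPM in T1. The summed B-cell markers stood at 376 CPM in T3 against 1179.6 CPM in T1, and their part in this was not tested.

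**Figure D5:**
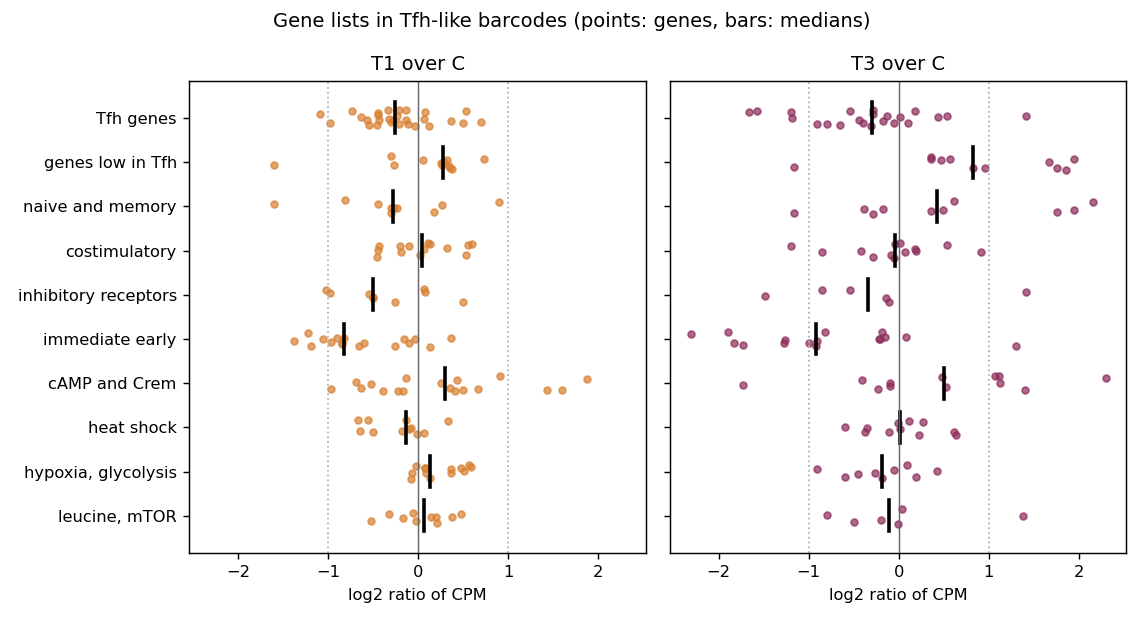
Log2 ratios of T1 over C and T3 over C in Tfh-like barcodes for 10 gene lists; each point is a gene with at least 50 UMIs over both libraries and each bar the median of its list. The Tfh list has medians of -0.25 and -0.30, the genes low in Tfh 0.28 and 0.83, and the immediate early genes -0.82 and -0.92 for T1 over C and T3 over C.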

How the data were processed

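Colon CD45+ cells were captured on the 10x Genomics 3′ platform, per the labels' protocols. Per the submitters' processing notes, the tools were Cell Ranger 3.1.0, CASAVA 1.8 and Seurat 3.1.4, on GRCm38, with no role stated for each. The deposited matrices hold whole-number UMI counts of 30905 genes per barcode, as the authors deposited them, with 37208603 UMIs in T1, 15898397 in T3 and 35489195 in C.

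Barcodes with at least 200 genes and at most 20% mitochondrial UMIs were kept, and 343 Tfh-like barcodes were chosen by the UMI rule. The barcodes and gene lists were chosen with earlier results of these data known. UMIs were summed per library and population. Ratios of CPM carry exact conditional 95% intervals and share ratios a normal approximation. A call needed 50 UMIs, 2-fold and an interval without 1, and no test was made, with 1 library per group. Shares were repeated after thinning to 1000 and 2000 UMIs. Doublets were called with scanpy's Scrublet and not removed.

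Named genes were the members of the lists and, per comparison, up to 10 genes in each direction (15 against other CD3 barcodes) ordered by the interval bound nearest 0 or the smallest ratio over libraries. They had to be found in 5% of barcodes. Not named were mitochondrial, ribosomal, receptor-segment and predicted genes, the rule's own genes, and any gene whose CPM was below 20% of the CPM found in barcodes without CD3. Coordinates are those of GENCODE for GRCm38 and promoters those of RefSeq for GRCm38.p6. Some genes of the lists are not reported here. Intervals were checked on simulated data drawn with counting error alone. That check leaves out UMIs clumped in single barcodes, so it does not show how well the intervals hold for such genes. Tools were python 3.11.15, numpy 2.4.6, scipy 1.17.1, pandas 2.3.3, scanpy 1.11.5 and matplotlib 3.10.9.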

Additional observations from a re-analysis of the deposited data

Results flagged for a closer look

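Genes were picked out when they were called one way in Tfh-like barcodes and the opposite way in other CD3 barcodes of the same libraries. There were 5 for T3 over C and 3 for T3 over T1, and none of the differences between the populations was tested. For T3 over C, S100a4 had a log2 ratio of 2.61 in Tfh-like and -2.36 in other CD3 barcodes, S100a6 1.51 and -1.61, Crip1 1.56 and -1.05, and Ahnak 1.40 and -2.09. These 4 genes are known from effector and memory T cells. Tubb2a, a beta-tubulin gene, ran the other way, at -2.16 in Tfh-like and 1.89 in other CD3 barcodes.

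For T3 over T1, S100a4 had a log2 ratio of 1.61 in Tfh-like and -2.10 in other CD3 barcodes, Id2 1.33 and -1.12, and Ahnak 1.10 and -1.43. In T3, S100a4 rested on 104 UMIs in 7 of 58 Tfh-like barcodes, with 42.3% in 1 of them, and its ratio of T3 over T1 turned to -2.22 without the barcodes that held haemoglobin UMIs. The Id2 ratio of T3 over T1 was then 0.83 and no longer called. The level of S100a4 in Foxp3 barcodes was 1169 CPM in T3, 1409 CPM in T1 and 1567 CPM in C, well above the 318 CPM of Tfh-like barcodes in T3. Whether such cells had a part in the Tfh-like value was not tested.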

How the results depend on the processing

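Of 164 recomputed shares and counts of called genes, 98 stayed within the interval of the share or within 1.5 times the count, and 66 moved. The cause was not tested. Removing called doublets took out 0 Tfh-like barcodes, so counts between libraries could not move under that alternative. With at least 3 markers the share of CD3 barcodes was 3.06% in T1, 0.365% in T3 and 2.07% in C. With a Cd4 UMI it was 4.91%, 1.46% and 2.28%, and without Izumo1r as a marker 3.59%, 0.657% and 2.17%. Without Pdcd1 it was 5.74% in T1. With 6 more B-cell genes excluded it was 1.96%, 1.35% and 0.841% in T1, T3 and C. With Cd79a and Ms4a1 allowed it was 9.67% in T1 and 4.73% in C. Thinned to 1000 UMIs it was 2.20%, 0.506% and 1.64%, and thinned to 2000 UMIs 4.85% in T1 and 1.39% in T3.

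Counts of called genes, 57 higher and 30 lower in T1 than C, 86 and 89 in T3 than C, 99 and 150 in T3 than T1, and 100 and 43 against other CD3 barcodes in all libraries, moved with the barcodes kept and with the thresholds of the call. With at least 3 markers 35 genes were higher in T1 than C, 23 higher and 41 lower in T3 than C, 29 higher and 69 lower in T3 than T1, and 26 lower than in other CD3 barcodes. With a Cd4 UMI 66 were higher and 18 lower than in other CD3 barcodes, and with that UMI asked of the other CD3 barcodes 63 and 18. Without Izumo1r 17 were lower in T1 than C, 47 higher in T3 than C, 90 lower in T3 than T1, and 16 lower than in other CD3 barcodes. With 6 more B-cell genes excluded 13 were lower in T1 than C, 52 higher and 13 lower in T3 than C, 30 higher and 52 lower in T3 than T1, and 34 higher and 21 lower than in other CD3 barcodes. A count that stayed did not always hold the same genes. Under that exclusion 58 were higher in T1 than C, and 4 of them were among the 57 reported, of which 5 still had enough UMIs. With at most 10% mitochondrial UMIs 154 were lower in T3 than T1, and 140 of them were among the 150 reported.

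With the mean of barcode CPM 99 were lower than in other CD3 barcodes. Asking for 20 UMIs gave 129 higher and 96 lower in T1 than C, 242 and 200 in T3 than C, and 234 and 238 in T3 than T1. Asking for 100 UMIs gave 12 and 8 in T1 than C, 36 and 22 in T3 than C, and 26 and 71 in T3 than T1. Asking for 1.5-fold gave 170 and 126 in T1 than C, 244 and 227 in T3 than C, and 331 and 324 in T3 than T1. The alternatives that follow were chosen after seeing the data. With Cd79a and Ms4a1 allowed 133 were higher and 161 lower in T3 than C. Without haemoglobin barcodes 43 were higher and 25 lower than in other CD3 barcodes, and in T1 and C alone 200 and 203. Here too a count could stay while its genes changed. Without haemoglobin barcodes 150 were lower in T3 than T1, and 46 of them were among the 150 reported, of which 140 had enough UMIs. With Cd79a and Ms4a1 allowed 70 were higher in T1 than C, and 22 of them were among the 57 reported, which all had enough UMIs.

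Of 1025 recomputed ratios of 75 gene results, 950 stayed within the interval of the reported ratio, 72 moved and 3 changed sign. S100a4 for T3 over T1 was -0.42 with 6 more B-cell genes excluded and -2.22 without haemoglobin barcodes, and Stmn1 for T1 over C was -0.46 with Cd79a and Ms4a1 allowed. Some alternatives could not move a ratio between libraries. The UMI and fold thresholds of the call do not enter it, and removing called doublets took out 0 Tfh-like barcodes. The 950 thus overstates how stable the ratios were. With at least 3 markers, 10 of the 86 genes higher in T3 than C had enough UMIs, and 4 stayed called. Of the 99 higher in T3 than T1, 11 had enough and 2 stayed. Of the 57 higher in T1 than C, 11 had enough and 11 stayed. No paired analysis was possible because each group has 1 library, and for the same reason no library could be left out of a comparison between groups. In T3, 58 barcodes and 327388 UMIs limit what can be seen, and a gene with 0 UMIs there can stand at up to 9.16 CPM.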

Other observations

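Gene groups beyond the Tfh programme were looked at in the Tfh-like barcodes. Of 18 hypoxia and glycolysis genes, 5 of 16 with enough UMIs were called higher in Tfh-like than in other CD3 barcodes of T1, 6 of 14 in T3 and 3 of 14 in C, with Hif1a among them, beside 5.07%, 6.47% and 5.78% of all genes tested. Hk2, a hexokinase, was called lower in T1, at a log2 ratio of -2.62, and Slc2a3, a glucose transporter, in T3, at -1.41. Between libraries 0 of 13 were called in T1 against C and 0 of 9 in T3 against C. Heat shock genes gave 0 calls in T1 against C, in T3 against C and against other CD3 barcodes of any library, while Hsph1 was called higher in T3 than T1, with a log2 ratio of 1.17. Of 20 genes of leucine transport and mTOR signalling, which the series' title points to, 0 of 10 with enough UMIs were called in T1 against C and 1 of 6 in T3 against C, Sesn3, a sestrin, at 1.38.

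Of the type 17 list without Il17a and Il17f, 1 of 4 genes with enough UMIs was called higher in T1 than C (Il1r1) and 2 of 2 in T3 than C, with 0 lower. These 2 were Rora, a factor of type 17 and type 2 cells, at a log2 ratio of 1.23, and Il21r, the receptor of interleukin 21, at 1.26. Over all genes tested, 1.38% were called higher in T1 than C and 3.56% in T3 than C. Of the type 1 list, 1 of 6 was called higher in T1 than C (Nkg7, with 61.0% of its UMIs from 1 barcode) and 0 of 3 in T3 than C. Of the proliferation list, 1 of 6 with enough UMIs was called in T1 against C (Stmn1) and 0 of 5 in T3 against C. Of the interferon list, 0 of 13 were called in T1 against C, and Ifi47 was called lower in T3 than C.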
